A study of Mus musculus with 32 samples.

Results

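The 8 immunoglobulin heavy chain constant genes of the mouse, Ighm, Ighd, Ighg3, Ighg1, Ighg2b, Ighg2c, Ighe and Igha, were followed through naive B cells, both zones of the germinal centre and plasma cells. They were taken as the rows of the deposited count table that carry these gene names, 8 of 53465 genes. In the GENCODE M21 annotation of GRCm38 the genes lie on the minus strand of chromosome 12, between positions 113254830 and 113422730, and transcription meets them in the order just given. The sources used here do not name the genome build behind the counts, so coordinates belong to the annotation only.

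Libraries were made from 500 sorted spleen cells each, with a low-input full-length cDNA kit (SMART-Seq v4). All mice were C57BL/6, aged 12 weeks, and carried AID-cre, a Cre recombinase line used to recombine genes in germinal centre B cells. They were sorted 14 days after an intraperitoneal injection of NP-CGG in alum, a hapten on a protein carrier whose antibody response needs T cells. Mice were WT or aPIK3CD, a label the series title ties to activated PI3K-delta signalling, and 4 replicates were collected of naive B cells, dark zone cells, light zone cells and plasma cells of each genotype. How the cells were sorted, whether replicates are single mice, and which cells carry the activated enzyme are not stated, so p-values measure the spread between these libraries.

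A constant gene decides the class of the antibody that a B cell makes. A naive B cell transcribes a single rearranged variable region through Ighm and Ighd and splices it to either, giving surface IgM and IgD. Class switch recombination deletes the DNA in front of a downstream constant gene and so places Ighg, Ighe or Igha behind the same variable region. Unswitched cells can also transcribe a downstream gene without its variable region (germline transcripts), and counts per gene do not separate these from switched heavy chain mRNA. Each constant gene further gives a shorter transcript for the secreted antibody and a longer one with membrane exons.

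Naive B cell libraries held 1965329 to 2820830 counts in total, light zone libraries 902088 to 1835558 and plasma cell libraries 473149 to 788999. In the dark zone they ranged from 1154809 to 1941224, except for WT replicate 3 with 25797, and results that rest on this library are given with and without it. The genotype field of the 4 libraries titled aPIK3CD replicate 1 reads WT, and they were grouped by title. Plasma cell and germinal centre markers matched their populations. In plasma cells 7 plasma cell markers summed to between 10300 and 13860 CPM (counts scaled to a common library total, here the plain total), against at most 3915 CPM elsewhere. In the zones 7 germinal centre markers summed to between 1794 and 3092 CPM, against at most 237.1 CPM elsewhere. The 3915 CPM belonged to dark zone WT replicate 3, and the other zone libraries reached at most 1879 CPM. The zones differed less from each other. Dark zone markers (5) summed to 1661 to 1868 CPM in the dark zone and 1231 to 1497 CPM in the light zone. Light zone markers (5) summed to 1401 to 1891 CPM in the light zone and 619 to 1080 CPM in the dark zone. Naive libraries, at 1290 to 1506 CPM of light zone markers, overlapped the light zone. Markers of other cell types were present: 5 natural killer markers summed to 158.4 to 346.8 CPM in naive libraries, 7 T cell markers to 344.8 to 651 CPM in the WT light zone and 440.2 to 599.9 CPM in the aPIK3CD light zone. In plasma cells 7 monocyte, macrophage and neutrophil markers summed to 25.36 to 354.9 CPM in WT and 183.3 to 527 CPM in aPIK3CD. Rows named S100a8, S100a9 and Itgam were at 0 in both, but a name in this list had more than a single row. The part of markers of other cell types in the results was not tested. Levels of the 8 constant genes below are in CPM of TMM-adjusted library totals, which differ from the plain totals.

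Among annotated genes with at least 100 counts in some library, counts did not exceed about 2 per exonic base: the highest value in any library was 2.07. Ighm reached 1.85 counts per exonic base, and 2.33 per base of its shorter transcript, with 3003 to 3308 counts in naive WT libraries and 3322 to 3428 in WT plasma cell libraries. Zone libraries held fewer Ighm counts, 1789 to 2634 in the WT light zone and 2147 to 2589 in the WT dark zone, besides 196 in replicate 3. Igha held 2.07 to 2.18 counts per base of its shorter transcript in WT plasma cells, and Ighg2b held 1.92 to 1.99 in aPIK3CD plasma cells. For a gene near this bound, CPM falls as the library total rises, and differences between abundant genes are compressed. No label says whether duplicate reads were removed.

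The 4 gamma genes are close relatives, so it matters whether reads could pass from one to another. Over the first exon of 291 bases, identity between pairs ranged from 78.35% to 88.32%, and 203 positions were the same in all 4 genes. The first 60 bases of that exon are shown 5′ to 3′ because they display how the genes differ, with the 22 positions that are not the same in all 4 in capitals.
Ighg3: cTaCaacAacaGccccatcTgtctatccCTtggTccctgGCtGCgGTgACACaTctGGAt
Ighg1: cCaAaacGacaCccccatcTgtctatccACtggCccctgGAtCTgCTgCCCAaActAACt
Ighg2b: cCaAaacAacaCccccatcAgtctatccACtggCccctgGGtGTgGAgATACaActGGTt
Ighg2c: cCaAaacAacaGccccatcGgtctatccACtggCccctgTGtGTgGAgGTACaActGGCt
On the minus strand these stretches lie at chr12:113361173-113361232 (Ighg3), chr12:113330464-113330523 (Ighg1), chr12:113307874-113307933 (Ighg2b) and chr12:113288873-113288932 (Ighg2c).

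The longest run shared by any pair was 78 bases, in Ighg2b and Ighg2c, at bases 565 to 642 of the shorter Ighg2b transcript. It is shown because reads inside it cannot tell these 2 genes apart.
Ighg2b and Ighg2c: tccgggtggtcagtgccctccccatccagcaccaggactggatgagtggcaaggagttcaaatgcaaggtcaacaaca
Of all 50-base windows, 5.26% in Ighg2b and 5.27% in Ighg2c also occurred in another member, 0.577% and 0.579% of 75-base windows, and 0% of 100-base windows. No window of 50 bases of the other 6 members was shared. Ighg2b and Ighg2c counts are thus uncertain to this extent where reads were short, and the sources used here do not give the read length.

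The second exon encodes the hinge, whose cysteines join the heavy chains, and it differs most plainly among the gamma genes. The in-frame cysteine codons are in capitals.
Ighg3: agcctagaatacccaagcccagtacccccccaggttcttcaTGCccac
Ighg1: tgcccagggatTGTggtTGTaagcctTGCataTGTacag
Ighg2b: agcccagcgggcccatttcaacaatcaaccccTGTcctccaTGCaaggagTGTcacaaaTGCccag
Ighg2c: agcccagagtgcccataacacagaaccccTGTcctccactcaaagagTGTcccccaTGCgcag
The exons span 48, 39, 66 and 63 bases, with 1, 4, 4 and 3 such codons. They lie at chr12:113360529-113360576, chr12:113329844-113329882, chr12:113307261-113307326 and chr12:113288263-113288325, in the same order.

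Ighm and Ighd encode the receptors of unswitched B cells. In naive B cells Ighm stood at 1261 ± 140.5 CPM in WT and 1243 ± 52.54 CPM in aPIK3CD libraries (mean ± SD, n = 4), and Ighd at 1096 ± 113.8 and 1089 ± 45.35 CPM. Ighd counts were 2557, 2911, 2755 and 2743 in naive WT replicates 1 to 4 and 2755, 2706, 2856 and 3033 in aPIK3CD. In WT plasma cells they were 8, 4, 28 and 5, and in aPIK3CD plasma cells 21, 0, 3 and 2. No naive library overlapped a plasma cell library, and the germinal centre libraries lay between, at 272.7 ± 34.85 CPM in the WT dark zone and 295.1 ± 84.68 CPM in the WT light zone, which overlapped each other.

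Gamma genes were rare in naive B cells and abundant in plasma cells. Ighg1, the class typical of alum-driven responses, had 49, 1, 1 and 0 counts in naive WT libraries and 6, 2, 1 and 4 in naive aPIK3CD. In the WT light zone it had 1887, 2138, 1460 and 497 counts, and in the aPIK3CD light zone 1223, 1198, 902 and 1330. Plasma cells gave 1792, 1302, 1001 and 597 Ighg1 counts in WT and 1633, 1663, 936 and 1670 in aPIK3CD. Every light zone and plasma cell library was above every naive library in CPM, a separation found in 46.8% and 49% of all genes between plasma and naive cells (WT and aPIK3CD) and in 40.1% and 41.9% between light zone and naive cells.

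Ighg2c, the IgG2a counterpart of C57BL/6 mice, was the gamma gene with the steepest step between the light zone and plasma cells. Light zone counts were 30, 146, 175 and 66 in WT and 99, 77, 197 and 345 in aPIK3CD, or 67.58 ± 34.56 and 112.7 ± 66.48 CPM. In WT plasma cells its counts were 1537, 1528, 1395 and 1240. In aPIK3CD plasma cells they were 1363, 199, 104 and 1856, so replicates 2 and 3 were far below all other plasma cell libraries and replicates 1 and 4 were not. Ighg2b counts in the same 4 libraries were 2220, 2143, 2190 and 2172. They lie near the bound on counts, at 1.92 to 1.99 per base of the shorter transcript, so differences between them are compressed.

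Ighg2b and Ighg3 moved between these extremes. Ighg2b rose from 32.29 ± 37.88 CPM in naive WT cells to 447.7 ± 227.1 CPM in the light zone and 3511 ± 694.9 CPM in plasma cells. For Ighg3 the same groups gave 24.97 ± 12.6, 254.3 ± 101.3 and 2880 ± 955 CPM. Both increases over naive cells passed the tests given below.

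Ighe, which encodes IgE, was scarce apart from 1 library. It had no count in any naive aPIK3CD library, 0 of 9994049 counts together, which allows up to 0.3 CPM (3 counts over the group, of the plain total). Zone libraries held 0 to 87 Ighe counts. Plasma cell counts were 1115, 0, 1 and 2 in WT and 2, 2, 6 and 0 in aPIK3CD, so WT replicate 1 alone carried 2417 CPM and the other plasma cell libraries at most 10.73 CPM. The light zone WT library of the same number also had the highest Ighe count of its zone, 87, against 32, 36 and 0.

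Igha, the gene of the mucosal class IgA, was higher in CPM in every plasma cell library than in any zone library, as were Ighg2b and Ighg3. Its WT counts were 206, 59, 80 and 92 in naive cells, 55, 46, 116 and 51 in the light zone, and 2345, 2363, 2401 and 2279 in plasma cells. In aPIK3CD they were 70, 150, 52 and 51, then 48, 33, 22 and 41, then 1988, 2122, 1872 and 1963. Light zone and naive libraries overlapped in both genotypes, and every plasma cell library lay far above them. Bulk libraries cannot separate a larger share of IgA plasma cells from more Igha RNA per cell.

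**Figure D1:**
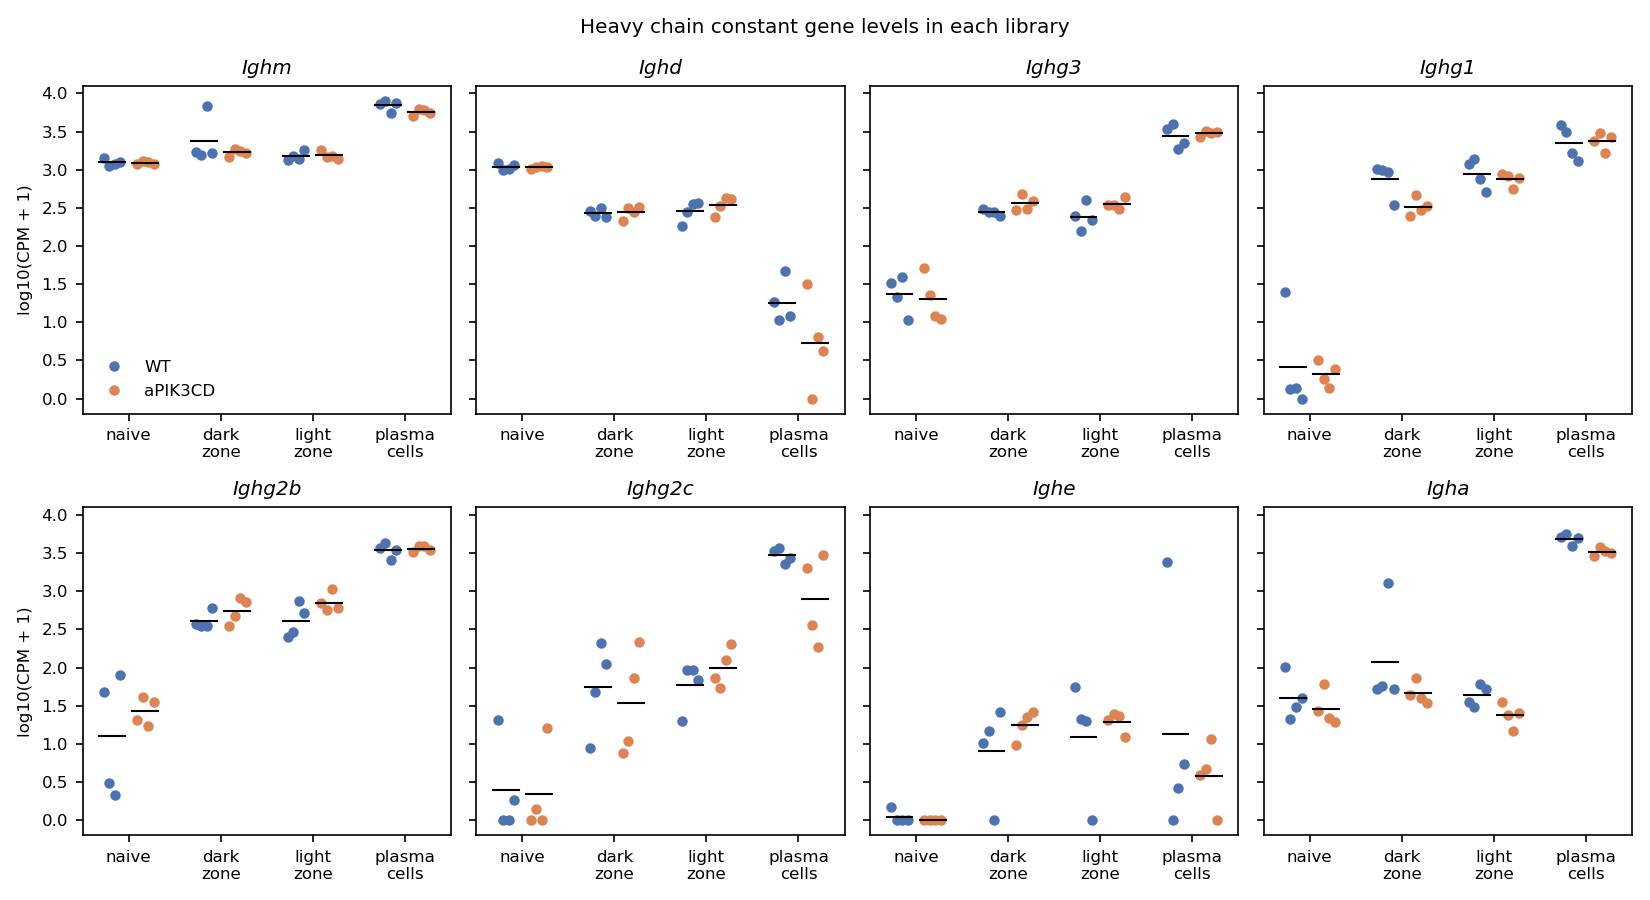
Level of each heavy chain constant gene, as log10 of CPM + 1, in each of 32 libraries (TMM-adjusted totals), by population and genotype; points are libraries (replicates 1 to 4 from left to right) and lines are means of the plotted values. Ighd falls from naive B cells to plasma cells, the gamma genes and Igha are highest in plasma cells, and Ighe is high in 1 plasma cell library.

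Populations were compared with edgeR's quasi-likelihood test, with Benjamini-Hochberg adjustment over all genes tested and a threshold of 0.05. The comparisons share libraries, the naive and light zone ones entering more than once, so they are not independent of each other. Between plasma cells and naive B cells 7 members could be tested in each genotype and all 7 passed, among 49.6% of all genes in WT (25.4% higher and 24.2% lower in plasma cells) and 52.8% in aPIK3CD (26.5% and 26.2%). Ighe did not pass the filter on low counts there. In WT, Ighd fell by 5.44 (SE 0.313) on the log2 scale (adjusted p = 3.45e-09), while 6 members rose.

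Ighg2c showed the greatest rise in WT plasma cells over naive cells, with a log2 fold change of 9.52 (SE 0.792, adjusted p = 1.72e-07 in edgeR), followed by Ighg1 with 8.99 (SE 0.875, adjusted p = 8.87e-07). Ighg3 rose by 7.02, Ighg2b by 6.97 and Igha by 6.90, with SE of 0.391, 0.837 and 0.438. Their order is not resolved by these errors. For Ighg1 and Ighg2c the naive level was at or near 0 in most libraries, so these fitted values depend on the few naive counts. Naive WT replicate 1 held 49 of 51 Ighg1 and 41 of 43 Ighg2c counts, and without it the values were 13.03 and 13.3. In aPIK3CD, Ighd fell by 6.52 (SE 0.438), and Ighg1, Ighg2c, Ighg2b, Ighg3 and Igha rose by 11, 8.57, 7.19, 7.16 and 6.87. Without naive aPIK3CD replicate 4, which held 41 of the 42 naive Ighg2c counts, the Ighg2c value was 12.76.

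Ighm rose by 2.66 in WT (SE 0.153, adjusted p = 3.3e-09 in edgeR) and by 2.36 in aPIK3CD (SE 0.0742). Its raw counts were nearly equal in both populations, as given above, and the totals of plasma cell libraries were all below those of naive libraries. With a term for the log2 total count, chosen after seeing the data, the Ighm differences were 0.66 and 0.64 and none of the 7 members passed in either genotype. Totals of the 2 populations do not overlap, so depth and population cannot be told apart in that fit. Corrected for position saturation, the Ighm differences were 2.86 and 2.56. That correction takes 2.1 counts per exonic base as the bound, where Ighm reached 1.85, or 2.33 per base of its shorter transcript. The corrected values may thus still be compressed.

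Light zone cells, which are selected by T cell help, differed from naive cells in 5 of 7 tested members in WT, among 40% of all genes (19.8% higher and 20.2% lower). Ighd fell by 1.85 (SE 0.190, adjusted p = 5.77e-06 in edgeR). Ighg1 rose by 7.52 (SE 0.766), Ighg2b by 3.87 (SE 0.775), Ighg2c by 3.84 (SE 1.0) and Ighg3 by 3.39 (SE 0.364). The values for Ighm and Igha, 0.32 and -0.05, did not pass (adjusted p = 0.0678 and 0.945). Without naive WT replicate 1 the values of Ighg1 and Ighg2c were 11.64 and 7.81. Ighg2c lost its call with DESeq2, and with the covariate for total count 3 members passed.

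In aPIK3CD, 7 of 8 members passed in the light zone against naive cells, among 42.6% of all genes (21.8% higher and 20.8% lower). Ighd fell by 1.55 (SE 0.148), and Ighg1, Ighg2c, Ighg2b and Ighg3 rose by 9.26, 4.89, 4.78 and 3.98. The Ighg2c value rests on naive replicate 4 and was 9.24 without it. Ighe had 115 counts in the light zone and 0 in naive cells. Its pooled light zone level, 19.82 CPM of the plain total, was 66.03 times the naive floor of 3 counts over the group. No limit was set on the light zone level, so this is not a strict lower bound. Ighm passed with 0.38 (SE 0.0805, adjusted p = 0.00235 in edgeR), but the sign turned after the saturation correction (-0.05) and with the covariate for total count (-0.25), when 1 member passed. Igha did not pass, at -0.34 (adjusted p = 0.554).

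Light zone and dark zone, between which germinal centre B cells move, differed in 0 of 8 members in WT (edgeR; among 2.55% of all genes, 1.3% higher and 1.26% lower), with 1 member, Ighm, below an unadjusted p of 0.05. That Ighm difference was -0.82, and -0.13 without dark zone WT replicate 3. In aPIK3CD, 1 of 8 members passed, among 6.04% of all genes (3.13% higher and 2.91% lower): Ighg1 was 2.3-fold higher in the light zone, a log2 fold change of 1.19 (SE 0.175, adjusted p = 0.00078). Dark zone counts of Ighg1 were 491, 571, 428 and 557, the light zone counts are given above, and the zones did not overlap in CPM, as in 12.8% of all genes. The call was lost in a single fit over all 8 groups (adjusted p = 0.139).

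Isotype shares describe the mixture within a library, and the bound on counts compresses the shares of the most abundant genes. Each member's counts were divided by its exonic length and expressed as a percent of the sum over the 8 genes. The switched share, the sum of Ighg, Ighe and Igha, was 3.36% ± 2.02 in naive WT and 2.75% ± 0.927 in naive aPIK3CD libraries (SD, n = 4). It was 35.5% ± 7.70 and 35.3% ± 5.04 in the dark zone, 42.9% ± 7.35 and 44.7% ± 2.24 in the light zone, and 67.2% ± 4.38 and 65.2% ± 4.97 in plasma cells. Without dark zone WT replicate 3, whose switched share was 24.6%, the dark zone WT value was 39.2% ± 2.94 (SD, n = 3).

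Among the switched genes, Ighg1 led in all 4 WT light zone libraries and in 3 of 4 aPIK3CD ones, Ighg2b leading in replicate 3. In WT replicate 4 the lead was 11.43% against 11.33% for Ighg2b and rests on the division by length, since raw counts were 497 and 509. Ighg1 made up 22.2% ± 9.53 of the 8 genes in the WT light zone and 16.2% ± 3.19 in aPIK3CD. WT plasma cell shares were 32.7% ± 4.35 for Ighm, 19.5% ± 1.18 for Ighg2c, 16.1% ± 1.85 for Igha, 11.3% ± 1.04 for Ighg2b, 9.66% ± 1.37 for Ighg3 and 7.95% ± 2.51 for Ighg1. This order depends on the length used, since Ighg2c has the shortest annotated membrane transcript of the gamma genes, 1214 bases. Per base of the shorter transcript, chosen after seeing the data, the WT plasma cell shares were 23.5% for Ighm, 22.2% for Igha, 15.5% for Ighg2b, 13.2% for Ighg2c, 12.8% for Ighg3 and 10.9% for Ighg1.

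**Figure D2:**
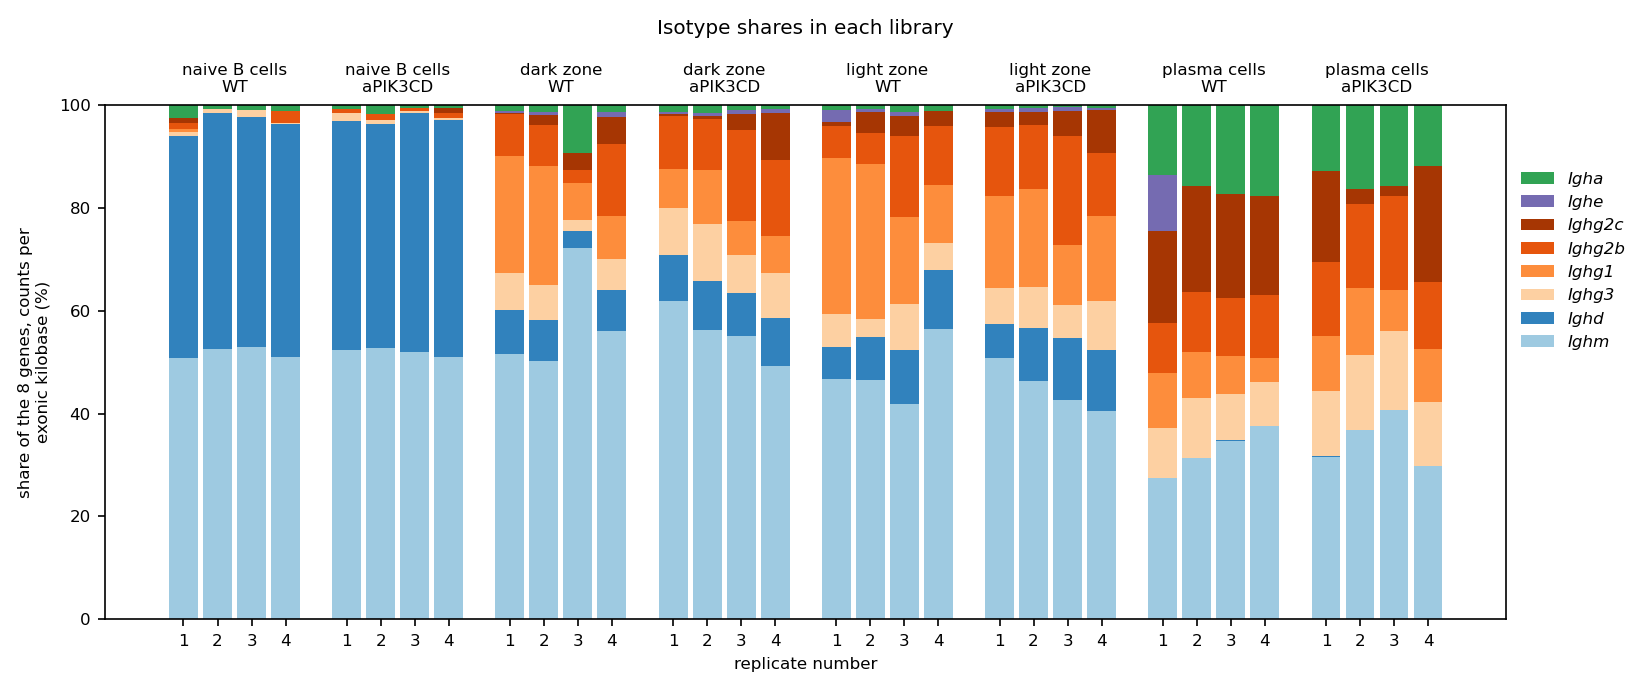
Share of each constant gene in the sum of the 8, in percent, from counts per exonic kilobase; each bar is a library, in groups of 4 by population and genotype. Ighm and Ighd fill nearly all of the naive bars, Ighg1 is prominent in the zones of WT replicates 1 and 2, Ighe appears in plasma cells of WT replicate 1, and Ighg2c is thin in plasma cells of aPIK3CD replicates 2 and 3.

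The genotype comparisons ask what activated PIK3CD signalling changes within a population. In naive B cells 0 of 5 tested members passed in edgeR, against 0% of all genes, and 0 had an unadjusted p below 0.05. Ighm and Ighd differed by -0.03 (SE 0.080) and -0.02 (SE 0.0783) on the log2 scale. Naive libraries held 1.59 to 1.76 Ighm and 1.35 to 1.60 Ighd counts per exonic base. Both genes are thus near the bound on counts, and these 2 differences may be compressed. Differences of Ighg3, Ighg2b and Igha, -0.10, -0.21 and -0.58, had SE of 0.556, 0.901 and 0.512, so changes of that size were not detectable. Ighg1, Ighg2c and Ighe did not pass the filter on low counts.

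In the dark zone 0 of 8 members passed in edgeR, against 0.021% of all genes (0.0105% higher and 0.0105% lower), and 2 had an unadjusted p below 0.05, Ighg1 and Ighg3. Ighg1 counts were 1467, 1360, 27 and 528 in WT and 491, 571, 428 and 557 in aPIK3CD. WT replicate 4 was the lowest of its group, at 342.8 CPM against 948 to 1031 CPM in the others, and it overlapped the aPIK3CD range of 246.2 to 472.5 CPM. The difference was -1.28 (SE 0.257, adjusted p = 0.131). It passed without WT replicate 4 (-1.60, adjusted p = 9.71e-05) and without aPIK3CD replicate 2 (-1.48, adjusted p = 0.0257). Leaving out each of the 8 libraries in turn, WT replicate 3 among them, gave differences from -1.60 to -1.09.

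Ighg3 and Ighg2b were higher in the mean of the aPIK3CD dark zone, by 0.39 (SE 0.161, adjusted p = 0.614) and 0.42 (SE 0.223, adjusted p = 0.712), and did not pass. The differences of Ighm (-0.67) and Igha (-1.28) rest on WT replicate 3, in which Ighm stood at 6881 CPM and Igha at 1264 CPM. Without it they were 0.02 and -0.20. That library had 196 Ighm, 9 Ighd and 36 Igha counts.

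In the light zone 0 of 8 members passed in edgeR, against 0% of all genes, with 3 below an unadjusted p of 0.05: Igha, Ighg2b and Ighg3. Igha was lower in the aPIK3CD mean, with a log2 fold change of -0.89 (SE 0.322, adjusted p = 0.702). Ighg2b counts were 393, 452, 1414 and 509 in WT and 964, 824, 1684 and 1021 in aPIK3CD, and the difference was 0.70 (SE 0.272, adjusted p = 0.702). WT replicate 3 lay inside the aPIK3CD range and the other WT libraries below it. Ighg3 differed by 0.48 (SE 0.204, adjusted p = 0.72), Ighg2c by 0.74 (SE 0.413) and Ighg1 by -0.32 (SE 0.222).

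Plasma cells gave the one member past the test between genotypes, 1 of 6 tested, where 3.2% of all genes passed (1.98% higher and 1.22% lower). Igha was lower in aPIK3CD, with raw counts of 1872 to 2122 against 2279 to 2401 in WT, and 3319 ± 386.6 against 4924 ± 725.9 CPM (SD, n = 4). The groups did not overlap, as in 14.9% of all genes. The log2 fold change was -0.60 (SE 0.120, adjusted p = 0.0256 in edgeR). As a share of the 8 genes Igha was 14.1% ± 2.14 in aPIK3CD and 16.1% ± 1.85 in WT, which overlapped (two-sided exact permutation test, p = 0.20).

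The Igha call did not hold throughout. Adjusted p rose to between 0.0548 and 0.0759 without WT replicate 1 or 2 or without aPIK3CD replicate 1, 3 or 4, with log2 fold changes from -0.61 to -0.50. It was 0.324 (log2 fold change -0.41) with aPIK3CD replicate 1 counted as WT, as its genotype field reads, and 0.57 when all groups were fitted together. Library totals moved with genotype, at 473149 to 704361 in WT and 652722 to 788999 in aPIK3CD. With the same term for the log2 total count, the Igha difference was -0.22 (adjusted p = 0.214) and Ighg2b passed instead, at 0.48 (adjusted p = 0.00648).

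Ighm differed by -0.33 in plasma cells (SE 0.112, adjusted p = 0.105 in edgeR), without passing. Ighg3, Ighg1 and Ighg2b differed by 0.04, -0.06 and 0.02, with SE of 0.188, 0.281 and 0.135. For Ighg2c the value was -1.16 (SE 0.605, adjusted p = 0.265), carried by aPIK3CD replicates 2 and 3. Ighd and Ighe did not pass the filter on low counts. All plasma cell genes together had a median log2 fold change of -0.00278.

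**Figure D3:**
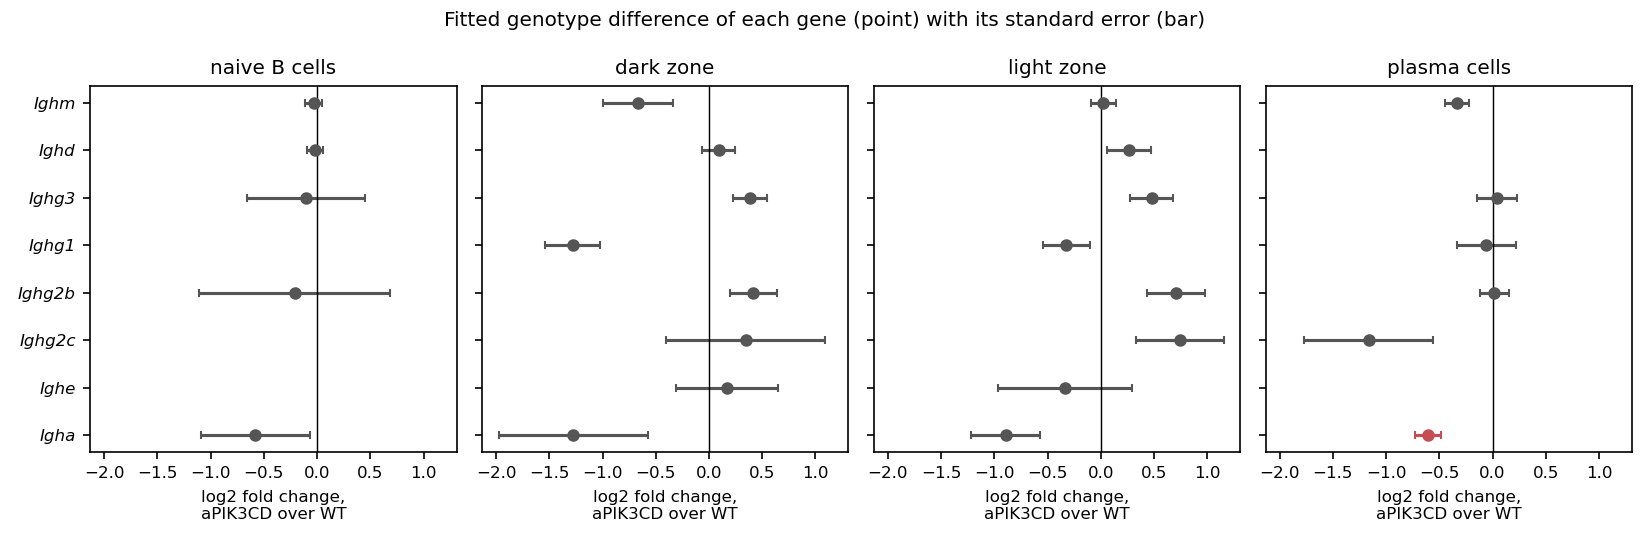
Fitted log2 fold change of aPIK3CD over WT (x axis) for each tested constant gene (y axis) in the 4 populations; points are estimates from 4 libraries a group, bars are 1 standard error, and red marks an adjusted p below 0.05. Igha in plasma cells, at -0.60, is the red point, and the dark zone values of Ighm and Igha include the library of 25797 counts.

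Isotype shares were compared between genotypes for each member and population, 32 tests in all, for which the smallest two-sided exact permutation p with 4 against 4 libraries is 0.0286. Shares did not overlap in 3 of them (1 in the dark zone and 2 in plasma cells, where CPM did not overlap in 4.43% and 14.9% of all genes), and each had this p and an adjusted p of 0.305. In the dark zone Ighg3 made up 9.05% ± 1.59 in aPIK3CD and 5.55% ± 2.26 in WT, or 6.66% ± 0.461 without WT replicate 3 (SD, n = 3). In plasma cells Ighg3 made up 13.7% ± 1.43 against 9.66% ± 1.37, and Ighg2b 15.5% ± 2.31 against 11.3% ± 1.04. With this smallest p, an adjusted p below 0.05 was out of reach unless most of the 32 tests had it, so the adjustment says nothing about these 3. The switched share differed by less than the spread between libraries in all 4 populations.

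Whether the genotype difference varied among populations was tested as an interaction over all 32 libraries. In edgeR 0 of 8 members passed, against 0.0256% of all genes, with 1, Ighe, below an unadjusted p of 0.05 (adjusted p = 0.363). The Ighe values are those of plasma cells of WT replicate 1.

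Genes that act on the heavy chain locus or its product were read from 3 lists. The class switch recombination list holds proteins that cut and join switch regions. Between genotypes 0 of its 23 to 29 tested genes passed in any population, against the shares of all genes given above. Between WT light zone and naive cells 13 of 29 tested genes rose and 1 fell, against 19.8% and 20.2% of all genes, with a list median of 0.61 against -0.04 for all genes. Between WT plasma and naive cells 2 of 26 rose and 8 fell, against 25.4% and 24.2% of all genes, with a list median of -0.445. Rises in the WT light zone over naive cells included Hmces, which shields abasic sites, by 1.84 (adjusted p = 1.75e-06 in edgeR). Rif1, which guards broken ends, rose there by 1.47 (adjusted p = 3.6e-05 in edgeR).

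Receptors and factors that direct switching to a particular isotype formed the next list, and 1 of its 20 tested genes passed between genotypes in plasma cells, a share near the 3.2% of all genes. Tgfbr1, a receptor chain for TGF-beta, fell by 1.16 (SE 0.20, adjusted p = 0.0197 in edgeR), from 90.6 to 40.2 CPM, and the groups did not overlap. The partner chain Tgfbr2 differed by -0.64 (adjusted p = 0.125), and Foxo1, a factor that PI3K signalling holds out of the nucleus, by -0.55 (adjusted p = 0.08). In naive cells, the dark zone and the light zone 0 of 24, 22 and 22 tested genes passed. In the light zone Tbx21, the T-bet factor of IgG2a and IgG2c switching, differed by 1.35 (adjusted p = 0.691), and in the dark zone by 1.15 (adjusted p = 0.658). Irf4, which drives plasma cell formation, differed by 1.77 in the dark zone (adjusted p = 0.354).

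Heavy chain RNA processing and antibody assembly made up the third list. In plasma cells 1 of its 22 tested genes passed between genotypes, again near the 3.2% of all genes. It was Pdia4, a disulfide isomerase of the endoplasmic reticulum, which rose by 0.45 (SE 0.091, adjusted p = 0.0256 in edgeR), from 2040 to 2780 CPM. Jchain, which links IgM and IgA into polymers, differed by -0.41 (adjusted p = 0.055), and the chaperone Hspa5 by 0.21 (adjusted p = 0.0733). Pax5, the B cell identity factor, differed by -0.59 in the dark zone and -0.50 in the light zone, with groups that did not overlap and adjusted p of 0.293 and 0.55. In naive cells, the dark zone and the light zone 0 of 22, 22 and 23 genes passed.

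Between plasma and naive cells of WT, 16 of 24 tested genes of this list rose and 5 fell, against 25.4% and 24.2% of all genes, with a median of 2.09 against -0.09 for all genes. Ell2, an elongation factor that favours the secreted form of heavy chain mRNA, rose by 3.84, and Xbp1, the regulator of the secretory apparatus, by 3.71. In the WT light zone against naive cells, 8 of 23 rose and 2 fell, against 19.8% and 20.2% of all genes. Zfp318, which is needed for the long transcript that reaches Ighd, fell by 3.01 (adjusted p = 8.4e-07 in edgeR), beside the fall of Ighd by 1.85.

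The balance between Ighg1 and Ighg2b was set side by side for libraries of the same replicate number, chosen after its values were seen and so given with no test. The log2 ratio of their raw counts in the light zone was 2.26, 2.24, 0.05 and -0.03 in WT replicates 1 to 4 and 0.34, 0.54, -0.90 and 0.38 in aPIK3CD. The dark zone values were 1.47, 1.5, 1.39 and -0.80 in WT and -0.50, 0.02, -1.47 and -1.09 in aPIK3CD. In plasma cells the ratios were 0.07, -0.45, -0.66 and -1.41 in WT and -0.44, -0.37, -1.23 and -0.38 in aPIK3CD. WT replicates 1 and 2 were thus high in both zones, and aPIK3CD replicate 3 was the lowest in both. Other numbers did not keep their place: WT replicate 3 was high in the dark zone and not in the light zone, and its dark zone library has 25797 counts, while aPIK3CD replicate 4 was low in the dark zone and not in the light zone. The labels do not state that a number marks 1 mouse across populations.

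**Figure D4:**
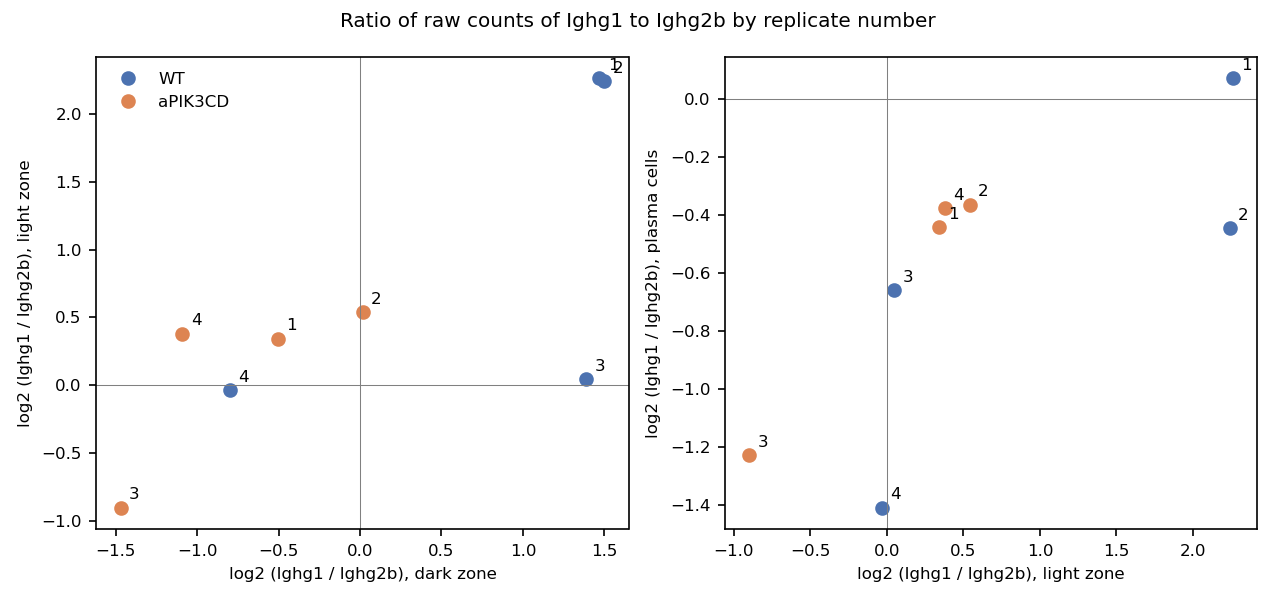
Log2 ratio of Ighg1 to Ighg2b raw counts in the dark zone against the light zone (left) and in the light zone against plasma cells (right); each point is a replicate number, labelled, and coloured by genotype. WT numbers 1 and 2 lie at the upper right of the left plot and aPIK3CD number 3 at the lower left, and WT number 3, whose dark zone library has 25797 counts, lies to the right, below WT numbers 1 and 2.

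The genes whose log2 CPM followed each member most closely over the 31 libraries with at least 100000 counts were ranked among 9918 genes. These correlations describe differences between populations, since the libraries share population and depth. Ighm was closest to Selenok (Pearson r = 0.987), Mzb1 (0.987), a chaperone of IgM assembly, and Ubb (0.986). For Igha the closest were Cst3 (0.99), Prlr (0.982) and Spcs1 (0.981), a part of the signal peptidase. Ighd was closest to H2-Ob (0.96), a chain of the H2-O antigen presentation modulator, then Samd9l (0.958) and Tmem243 (0.953).

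Ighg3 was closest to Jchain (0.966), Nans (0.962) and Slpi (0.961), and Ighg2b to Slpi (0.958), Prdx1 (0.94) and Jchain (0.937). Ighg1 was closest to Eaf2 (0.959), Mrpl20 (0.958) and Evc (0.956), and Ighg2c to Slpi (0.915), Uqcrq (0.896) and Psmb2 (0.895). Ighe had weaker neighbours, with Vdac3 (0.784) and Tmem29 (0.719). Among the members themselves, Ighm and Igha were most alike (0.977), Ighg3 and Ighg1 reached 0.907, and Ighd ran opposite to the other 7, from -0.193 with Ighe to -0.924 with Ighm.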

How the data were processed

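The authors deposited raw counts, as whole numbers, for 53465 genes in 32 libraries. STAR 2.4.2a, HTSeq and Picard were used, per the submitters' processing notes, with no roles given. Rows with a gene identifier but no symbol (0.173% of counts) stayed in the totals and tests. Reads carry no molecular identifiers, so limits from counts cover counting error only. Groups follow the sample titles.

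Each comparison of 2 groups was fitted on all genes with edgeR 4.0.16 in R 4.3.3: TMM normalization, filterByExpr (minimum count 10, minimum total 15), two-sided quasi-likelihood F test and Benjamini-Hochberg adjustment. The SE of a log2 fold change was taken as its size over the square root of F. CPM of the members are scaled by TMM-adjusted totals over all 32 libraries, and CPM of listed genes by those of the 2 groups compared. Marker sums and the limits for a count of 0 use the plain library total. Shares were compared with two-sided exact permutation tests (SciPy 1.17.1). Scripts were tested on simulated data.

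Members and gene lists were chosen with earlier results of these data known. Named genes are the 8 members, the 3 genes most correlated with each, and up to 4 genes per list and comparison with the smallest p, extended to populations by the same rule. Some genes that this rule selects are not reported here. Alternatives were DESeq2 1.42.0 (size factors, Wald test), no filter, normalization without immunoglobulin genes, a saturation correction (bound 2.1 per exonic base), thinning, a block for the replicate number, 1 fit over all groups, other treatment of aPIK3CD replicate 1, leaving out each replicate, a covariate for total count, and other share denominators.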

Additional observations from a re-analysis of the deposited data

Results flagged for a closer look

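Among 64 combinations of a member and a group of 4 libraries, 9 had a library far from the other 3, by a gap above Dixon's 95% critical value. Chance gives about 1 in 20 groups where values are normally distributed. That rate does not hold for groups with most counts at or near 0, such as naive Ighg1, Ighg2c and Ighe. CPM of the members are on TMM-adjusted totals and marker sums on plain totals. In naive B cells WT replicate 1 stood out for 3 members, with 23.62 CPM of Ighg1 (others at most 0.373), 19.76 CPM of Ighg2c (others at most 0.834) and 0.482 CPM of Ighe, a single count (others 0). The same library had 198 counts of Jchain, a plasma cell gene, against 26 to 93 in the other naive WT libraries, and its 7 plasma cell markers summed to 941.3 CPM against 669.3 to 898 CPM. Sdc1, another plasma cell gene, went the other way, with 6 counts against 47 to 91. Their part in these values was not tested. Naive aPIK3CD replicate 4 had 14.9 CPM of Ighg2c, with at most 0.403 CPM in the others.

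In the dark zone WT replicate 3, with 25797 counts, had 6881 CPM of Ighm (others 1573 to 1686) and 1264 CPM of Igha (others 50.61 to 56.43). Its 7 plasma cell markers summed to 3915 CPM, and their part in these values was not tested. Dark zone WT replicate 4 was low in Ighg1, at 342.8 CPM against 948 to 1031, and high in Ighg2b, at 596.7 CPM against 351 to 372.5. Plasma cells of WT replicate 1 had 2417 CPM of Ighe, from 1115 counts, against at most 4.38 CPM in the other 3 libraries.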

How the results depend on the processing

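The count of members past the test in naive B cells between genotypes stayed 0 under every alternative run. Dark zone: 3 members passed with no filter on low counts, 2 with the replicate block, and 0 to 1 when a library was left out. Light zone: 1 passed with no filter and 0 when libraries were left out. Plasma cells: 2 passed with DESeq2, 4 with no filter, 0 with aPIK3CD replicate 1 counted as WT, and 0 to 2 when a library was left out (0 without WT 1 or 2 or aPIK3CD 1, 3 or 4, and 2 without WT 3). The single fit also gave 1, but it was Ighe. The interaction gave 5 with no filter. The no-filter fits test genes with few counts, and the cause of their lower p-values was not tested.

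Between populations, the covariate for total count left 0 of 7 members in plasma cells against naive cells in WT and 0 in aPIK3CD, and 3 and 1 in light zone against naive cells. Light zone against dark zone in WT gave 2 with no filter, and in aPIK3CD 0 in the single fit. When libraries were left out the counts were 7 to 7 (plasma against naive, both genotypes), 5 to 7 and 7 to 7 (light zone against naive), and 0 and 1 (light against dark zone). Of 28 calls, 4 passed under every alternative: Ighd, Ighg3 and Ighg1 (light zone against naive, WT) and Ighg1 (the same, aPIK3CD).

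Members whose shares do not overlap numbered 2 in the dark zone with raw counts, with Ighm left out of the sum and per base of the shorter transcript, and 0 after the saturation correction or with aPIK3CD replicate 1 counted as WT. In the light zone there was 1 after thinning and 1 with aPIK3CD replicate 1 as WT, and in plasma cells 1 without Ighm in the sum. Leaving libraries out gave 0 to 1 (naive), 1 to 2 (dark zone), 0 to 2 (light zone) and 2 to 3 (plasma cells).

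Signs that turned were mostly of small log2 fold changes. Between genotypes in naive cells, Ighm became 0.027 (saturation correction), 0.0096 (aPIK3CD replicate 1 as WT) and 0.018 (covariate), Ighd 0.029, 0.033 and 0.022, and Ighg2b 0.93 (replicate block), 0.052 and 1.06. In the dark zone Ighm became 0.035 (thinned) and 0.064 (covariate), Ighg2c -0.20 (DESeq2) and -0.45 (replicate block), and Ighe -0.019 (thinned). In the light zone Ighm became -0.11 (aPIK3CD replicate 1 as WT) and Ighe 0.14 (replicate block). In plasma cells Ighm became 0.053 (covariate), Ighg3 -0.0028 and Ighg2b -0.015 (both thinned), and Ighg1 0.0038 (no filter), 0.044 (replicate block) and 0.34 (covariate). Light zone against naive cells gave Ighm -0.094 and -0.14 in WT and -0.053 and -0.25 in aPIK3CD (saturation correction, covariate), and Igha 0.10 (thinned), 0.19 (replicate block) and 0.037 (aPIK3CD replicate 1 as WT) in WT. Light against dark zone gave Ighg2b -0.17 (replicate block) and Ighg2c -0.29 (DESeq2) in WT, and Ighe -0.16 without number 1 in aPIK3CD. The cause was not tested.

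Leaving out each library turned the sign of these, given as lowest and highest. Between genotypes, naive: Ighm -0.080 to 0.052, Ighd -0.064 to 0.051, Ighg3 -0.80 to 0.17, Ighg2b -0.62 to 0.74, Igha -1.11 to 0.11. Dark zone: Ighm -0.91 to 0.025, Ighg2c -1.06 to 1.20, Ighe -0.084 to 0.66. Light zone: Ighm -0.055 to 0.15, Ighe -0.71 to 0.48. Plasma cells: Ighg3 -0.13 to 0.26, Ighg1 -0.27 to 0.21, Ighg2b -0.12 to 0.15. Light zone against naive: Igha -0.31 to 0.65 in WT and -0.56 to 0.19 in aPIK3CD. Light against dark zone: Ighg3 -0.42 to 0.044, Ighg1 -0.083 to 0.44, Ighg2b -0.31 to 0.30, Ighg2c -0.36 to 1.03 and Ighe -0.23 to 1.08 in WT, and Ighg3 -0.16 to 0.11 and Ighe -0.16 to 0.32 in aPIK3CD.

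With the replicate number as a block in edgeR, Ighg1 in the dark zone passed between genotypes (-1.19, adjusted p = 4.6e-09), as did Igha (-1.13, adjusted p = 0.0357), and the Igha call in plasma cells held (adjusted p = 0.0412). Here the block joins WT and aPIK3CD libraries, from different mice, by number alone, so no known pairing stands behind these p-values. The dark zone Igha difference rests on WT replicate 3, with 25797 counts, and was -0.20 without that library and without the block. Whether numbers pair libraries across populations was not settled: in no comparison did every same-numbered pair correlate above 0.1. In the aPIK3CD zones the 4 correlations were 0.249, 0.23, 0.0524 and 0.0617, each library correlating best with its own number. Over all comparisons between populations most libraries did so, and over those between genotypes most did not. The main tests treat libraries as unpaired. No other call changed with the block. The naive values of Ighg1, Ighg2c and Ighe rest on 0 to 49 counts a library.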
